A study of Mus musculus with 7 samples.

Results

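Collagen genes were examined in left lungs of 8-week-old mice lacking the transcription factor gene Gata5, whose zinc-finger protein binds GATA motifs in DNA, against lungs of wild-type mice of the same age. Biotin-labelled RNA of each lung was hybridised to 1 Mouse Genome 430 2.0 array (Affymetrix), which gave 3 arrays from Gata5 knockout mice (KO) and 4 from wild-type mice (WT), called biological replicates in the labels. No treatment was given, and the sources used here give neither the deleted exons nor the strain or sex of the mice. Collagen genes were taken as all genes whose symbol reads Col, a number, a and a number, on probe sets annotated to a single gene, which gave 42 genes on 82 probe sets among 18193 genes. Each gene was represented by its brightest probe set over the 7 arrays. Of the 42 genes, 31 had a mean log2 level of 5.47 or more, the 40th percentile of all probe sets, and were tested, and the other 11 lay under that level.

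Collagens are secreted proteins in which chains wind around each other into a long rigid helix rich in glycine and proline. Fibrillar collagens assemble side by side into the cross-linked fibres that give airways, vessels and alveolar walls their tensile strength. Type IV collagen forms the sheet-like network of basement membranes, which in the alveolus lies between the epithelium and the capillary. The remaining families decorate fibrils, form beaded filaments or hexagonal lattices, anchor epithelia or span the plasma membrane. In the lung, fibroblasts are the main source of fibrillar collagens, and endothelial and epithelial cells also make type IV collagen.

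Few collagen genes passed between KO and WT lungs, and the sizes of their changes were near those of other genes. The median absolute log2 change was 0.13 over the tested collagen genes, beside 0.14 over all tested genes. Of the 31 tested genes, 2 rose in KO lungs (Col20a1 and Col5a1), 0 fell and 29 did not pass the threshold of a limma adjusted p under 0.05. Thus 6.45% of the tested collagen genes passed, beside a background of 15.6% over all 13285 tested genes. By direction, the background was 5.56% for genes higher in KO and 10.0% for genes lower in KO. The 2 increases made up about the background share, and the count of 0 decreases compares with 4 collagen genes lower at an unadjusted limma p under 0.05. At that unadjusted limit 6 collagen genes were higher, beside backgrounds of 14.4% for higher and 20.4% for lower genes. Of the 2069 genes that passed over the whole array, 35.7% were higher in KO, and this share was 56.9% after a further quantile normalisation, 25.5% with arrays centred on their median and 46.7% after cyclic loess, where the collagen genes higher in KO numbered 5, 1 and 5 and those lower 0 each time. The 95% interval of the KO minus WT difference lay within 1.5-fold in either direction for 28 of the 31 tested genes. No share over all tested genes is given beside this count. In whole-lung RNA, fewer cells of a type and less RNA per cell cannot be told apart.

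**Figure D1:**
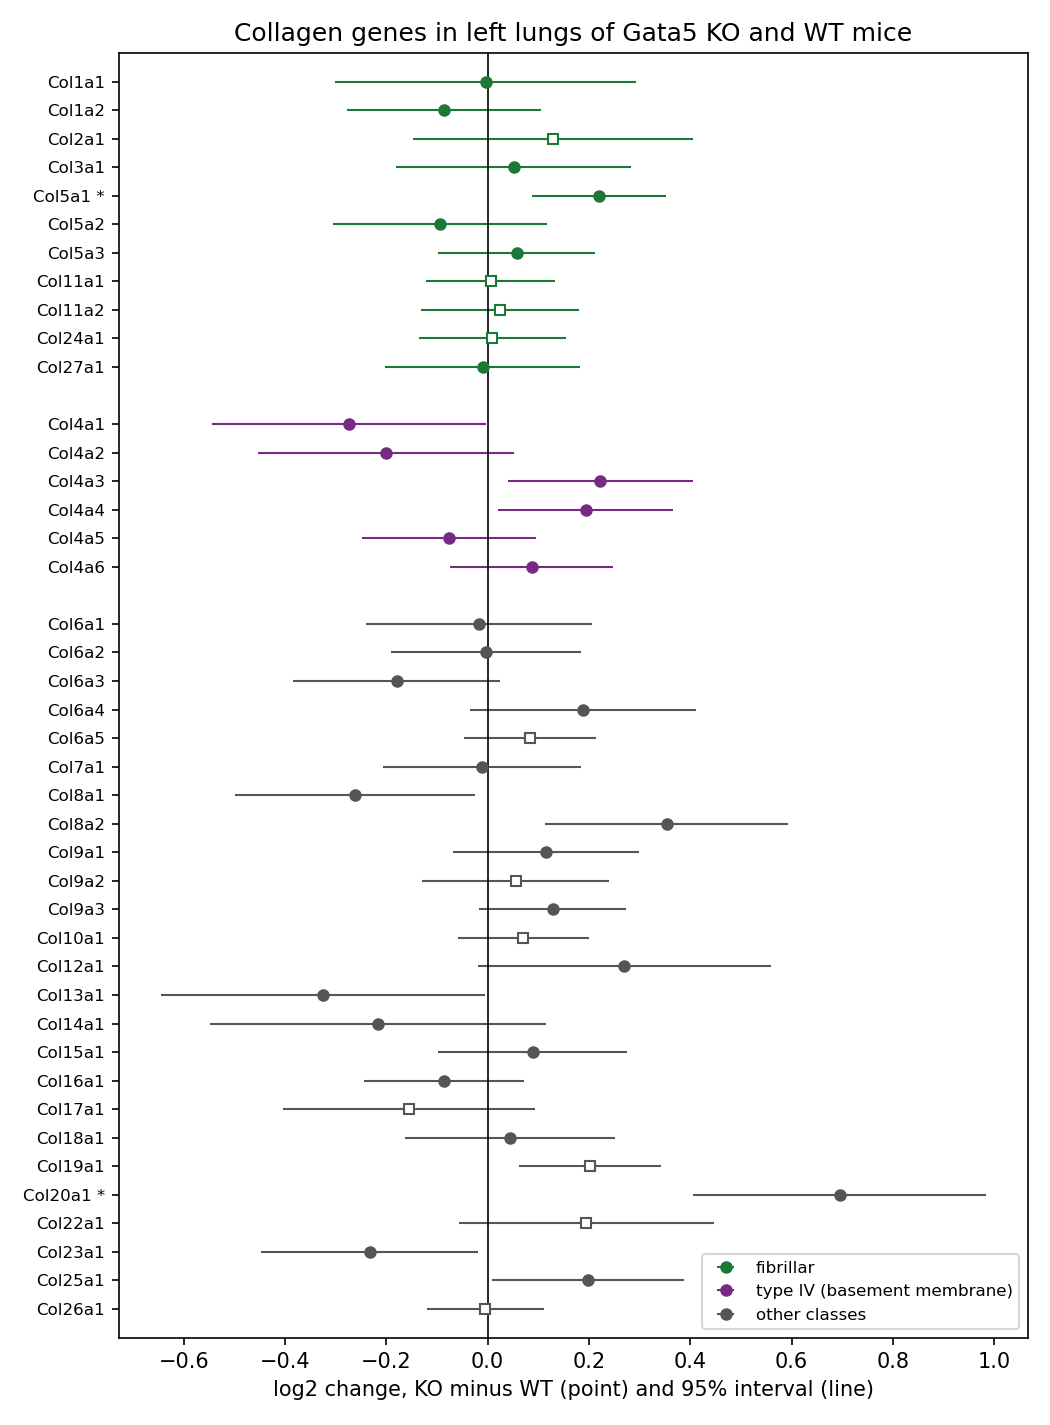
The log2 difference, KO minus WT, is drawn for the collagen genes with its 95% interval, one row a gene and grouped by class. Open squares are genes under the level filter and asterisks mark an adjusted p under 0.05. Col20a1 lies farthest from 0 at 0.70, and the tested type IV genes lie between -0.27 and 0.22.

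The arrays differed in ways that touch these comparisons. The targeted gene was dim. Gata5 at probe set 1450126_at was 4.98, 4.71 and 5.15 on KO arrays, against 5.32, 5.53, 5.85 and 5.47 on WT arrays. This gene's probes check the genotype only if they lie in deleted exons. The median log2 level was between 6.10 and 6.15 on every array. WT replicate 4 stood apart in Xist, the RNA of X inactivation, at 12.72 against 6.31 to 6.48 on the other arrays. The beta-actin control, a measure of how far labelling reached from the 3′ end, had a 3′ minus 5′ log2 difference of 4.96 ± 0.37 on KO arrays (SD, n = 3) and 4.10 ± 0.22 on WT arrays (SD, n = 4). The exact two-sided permutation p was 0.0571, the smallest that 35 splits can give, and the Gapdh 3′ minus middle difference gave the same p with 4.01 ± 0.26 on KO and 3.47 ± 0.16 on WT arrays. With the beta-actin difference as a covariate no gene of the whole array passed, and with the Gapdh difference 5 did, none of them a collagen gene. The part of this control difference in the collagen values below was not tested beyond these covariate fits.

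The fibrillar class held 11 genes, of which 7 were tested and 1 passed. Over all 11, the median log2 change was 0.01, beside 0.04 over all genes, and the 7 tested genes lay between -0.09 and 0.22. At their brightest probe sets the fibril-forming genes Col1a1, Col1a2, Col3a1 and Col5a2 did not pass, while second probe sets of Col1a1 and Col3a1 differed by 0.36 and 0.40. Col3a1 passed when genes were represented by the probe set of largest variance (limma adjusted p = 0.0447). Col1a1, one of the chains of type I collagen, had log2 levels of 9.82, 9.76 and 9.39 in KO lungs, against 9.41, 9.82, 9.64 and 9.77 in WT lungs. Its difference was -0.00, with a 95% interval of -0.30 to 0.29. Col1a2, which encodes the partner chain of type I collagen, had 12.78, 12.80 and 12.57 in KO lungs, against 12.68, 12.93, 12.78 and 12.82 in WT lungs. Both type I genes were lowest among the KO lungs in replicate 3, and the groups overlapped in both.

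Col3a1, the type III chain of distensible tissues, had log2 levels of 12.46, 12.33 and 12.25 in KO lungs, against 12.09, 12.51, 12.26 and 12.32 in WT lungs, a difference of 0.05 (limma adjusted p = 0.736). Col5a2, a chain of the type V collagen that nucleates fibrils, had 10.30, 10.30 and 10.28 in KO lungs, against 10.19, 10.52, 10.30 and 10.54 in WT lungs, a difference of -0.09 (limma adjusted p = 0.484). Neither separated the groups, and in both the KO values fell inside the WT range. The minor type V chain Col5a3 differed by 0.06 and the long-chain fibrillar gene Col27a1 by -0.01. The cartilage fibril genes Col2a1, Col11a1 and Col11a2 and the fibrillar gene Col24a1 lay under the level filter, with differences of 0.13, 0.01, 0.03 and 0.01.

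Col5a1 was the fibrillar gene that passed. Together with Col5a2 it makes the type V collagen that sets where fibrils start and how thick they grow. At its brightest probe set, 1416740_at, log2 levels were 8.84, 8.80 and 8.73 in KO lungs, against 8.60, 8.52, 8.61 and 8.55 in WT lungs. All KO values were above all WT values, though by a small margin. The difference was 0.22 (95% interval 0.09 to 0.35, limma adjusted p = 0.0382), a fold of 1.16. The size of the difference was steady, but the call was not. Leaving out any 1 array moved the difference only between 0.20 and 0.25. The limma adjusted p stayed under 0.05 only without KO replicate 3 and lay between 0.0623 and 0.093 without any of the others. The call was lost as well when arrays were centred on their median (0.19, limma adjusted p = 0.0658).

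The other Col5a1 probe sets did not share the increase. At 1434479_at the levels were 7.94, 7.82 and 7.77 in KO lungs, against 7.77, 7.86, 7.89 and 8.04 in WT lungs, a difference of -0.05. At the dim 1416741_at the difference was 0.03. The first probe set exceeded the second by 0.95 ± 0.04 in KO lungs (SD, n = 3) and 0.68 ± 0.13 in WT lungs (SD, n = 4; exact two-sided permutation p = 0.0571, the smallest possible). This gap was one of 5 such comparisons within a gene picked after the values were seen, and the p adjusted over them was 0.0952. That adjustment covers only the 5 picked and does not correct for the picking.

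A stretch of the Col5a1 promoter is shown because the gene is one of the pair that passed. It comes from the RefSeq window of the mouse assembly GRCm38.p6 that runs from 250 bases before to 50 after the annotated start, and was cut before the annotated gene. The stretch is chr2:27886175-27886380 on the plus strand, 206 bases with a GC content of 77.7%. Capitals mark GGGCGG or its complement CCGCCC, the core of the GC box. Here 2 such sites were found.
Col5a1: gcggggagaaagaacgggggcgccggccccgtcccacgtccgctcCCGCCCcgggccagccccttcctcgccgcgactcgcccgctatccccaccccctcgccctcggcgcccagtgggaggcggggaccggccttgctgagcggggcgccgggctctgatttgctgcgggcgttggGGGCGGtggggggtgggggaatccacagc

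Col20a1 gave the clearest difference in the family. It encodes a FACIT collagen, one of the group with interrupted helices that attach to fibril surfaces, and its own role is little known. At probe set 1425234_at log2 levels were 6.68, 6.66 and 7.18 in KO lungs, against 6.26, 6.06, 6.10 and 6.16 in WT lungs. Every KO value was above every WT value, and KO replicate 3 was the highest. The difference was 0.70 (95% interval 0.41 to 0.98, limma adjusted p = 0.0122), a 1.62-fold increase. It passed without any 1 of the 7 arrays, with a difference between 0.53 and 0.79 and an adjusted p of at most 0.0356, and under each scaling tried.

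The increase was present on each of the 4 Col20a1 probe sets. At 1425235_s_at levels were 6.38, 6.32 and 6.54 in KO lungs, against 6.00, 6.18, 5.84 and 6.01 in WT lungs. At 1430855_at they were 6.22, 6.06 and 6.17 in KO lungs, against 5.97, 5.79, 5.82 and 5.65 in WT lungs. At 1425236_at they were 5.04, 5.82 and 5.40 in KO lungs, against 4.48, 4.95, 4.67 and 4.53 in WT lungs. In all 4 the groups did not overlap, and the differences for the last 3 were 0.41, 0.34 and 0.76. In the fit over 45037 probe sets their limma adjusted p-values were 0.0281, 0.036 and 0.0349. These probe sets were dim, close to the level filter or below it. In that fit 9.89% of all probe sets passed and 3.53% did so as higher in KO, beside 5 of 82 collagen probe sets (6.10%), each of them higher, and outside Col20a1 the 1 of 78 that passed was that of Col5a1. The difference kept its direction with either control covariate but no longer passed (0.85, limma adjusted p = 0.227 with beta-actin, and 0.92, adjusted p = 0.129 with Gapdh).

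**Figure D2:**
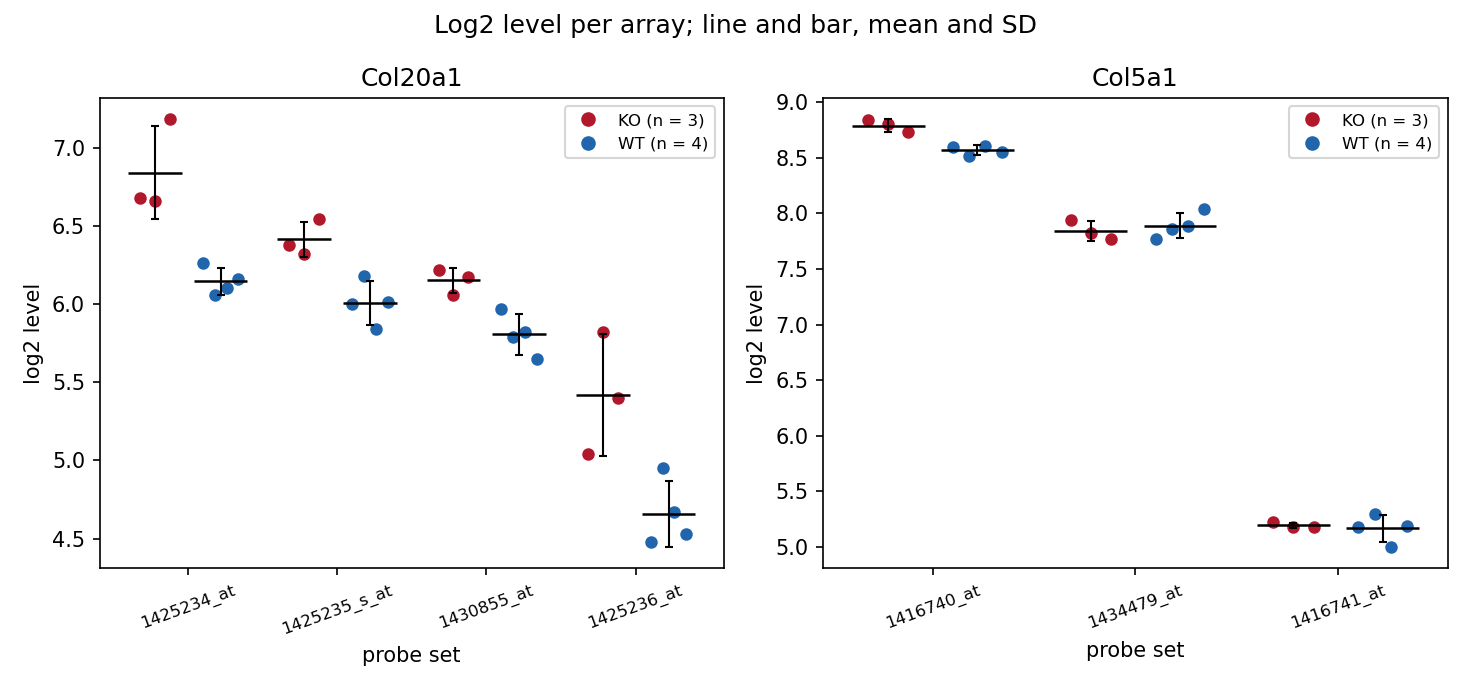
Log2 level (vertical axis) on each array at the probe sets of Col20a1 and Col5a1, with KO left of WT. Points are arrays, horizontal lines group means and vertical bars the SD. All 4 Col20a1 probe sets place the KO arrays above the WT arrays, whereas of the 3 Col5a1 probe sets only the brightest does.

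Col20a1 lies on chromosome 2, as does Gata5, with 14 annotated protein-coding genes between them. Of those, 11 were tested, 1 passed as higher (Mrgbp) and 2 as lower (Dido1 and Nkain4), beside 5.56% and 10.0% of all tested genes. Their limma adjusted p-values were 0.0448, 0.0496 and 0.0477. Mrgbp and Dido1 passed in 0 of the 7 leave-outs and Nkain4 in 2. The log2 changes of the 11 ran from -0.43 to 0.22 with a median of 0.12, beside -0.00 over all tested genes. Whether position near the targeted gene bears on the level was not tested. Col9a3, a cartilage FACIT gene, is nearer, with 4 protein-coding genes between it and Gata5. Its levels were 5.98, 5.84 and 6.04 in KO lungs, against 5.84, 5.84, 5.81 and 5.81 in WT lungs. The groups touched in the KO replicate 2 value, and the difference of 0.13 did not pass (limma adjusted p = 0.185). Col5a1 is on the same chromosome with 1515 protein-coding genes between.

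The Col20a1 promoter stretch is chr2:180986285-180986534 on the plus strand of GRCm38.p6, the 250 bases before the RefSeq start, with a GC content of 49.2%. It is shown as the member with the clearest difference, and it lies within the annotated span of the gene. It held no GGGCGG, so no letters are in capitals.
Col20a1: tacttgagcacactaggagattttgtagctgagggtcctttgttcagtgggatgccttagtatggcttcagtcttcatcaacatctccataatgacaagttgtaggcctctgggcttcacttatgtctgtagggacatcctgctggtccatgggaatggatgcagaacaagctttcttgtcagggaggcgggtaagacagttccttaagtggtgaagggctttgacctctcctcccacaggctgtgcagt
Neither this stretch nor that of Col5a1 held the TATA box core TATAAA, and neither held the CCAAT box or a GATA hexamer on either strand. The hexamers searched were AGATAA, its form AGATAG, and with another first base TGATAA and the form TGATAG. Promoter windows were found for 33 of the 42 collagen genes, 36 windows in all. A GATA hexamer was present in 5 of these windows (13.9%), those of Col3a1, Col4a6, Col11a2, Col17a1 and Col27a1, beside 29.8% of the 32851 windows of all genes. TATAAA was found in 5 (13.9%, beside 13.6%) and CCAAT in 13 (36.1%, beside 37.4%). GGGCGG was found in 22 windows of 21 genes (61.1%, beside 35.7%). A match is a run of letters and not a binding site.

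At the brightest probe sets, type IV collagen showed opposite differences between its chain pairs, none of which passed. The 6 genes are arranged as 3 head-to-head pairs with no protein-coding gene between the partners. Col4a1 and Col4a2 make the network found in nearly all basement membranes, whereas Col4a3, Col4a4 and Col4a5 make the network of the kidney glomerulus and the alveolus. The 6 genes were all tested, 0 passed, 2 were higher and 1 lower at an unadjusted limma p under 0.05. Their log2 changes ran from -0.27 to 0.22 with a median of 0.01.

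Col4a1 had log2 levels of 12.24, 12.16 and 11.73 in KO lungs, against 12.26, 12.32, 12.27 and 12.42 in WT lungs. All KO values were below all WT values, by a margin of hundredths in replicate 1, and KO replicate 3 stood well below the rest. The difference was -0.27 (95% interval -0.54 to -0.00, limma adjusted p = 0.140), and without KO replicate 3 it was -0.12. Col4a2 had 11.70, 11.72 and 11.34 in KO lungs, against 11.72, 11.72, 11.73 and 11.98 in WT lungs. It had the same low array, the groups met at 11.72, and the difference of -0.20 (limma adjusted p = 0.225) was -0.08 without KO replicate 3.

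The other network differed the other way at the brightest probe sets. Col4a3 had log2 levels of 10.54, 10.67 and 10.47 in KO lungs, against 10.18, 10.35, 10.41 and 10.41 in WT lungs. Col4a4 had 11.54, 11.44 and 11.35 in KO lungs, against 11.33, 11.12, 11.23 and 11.32 in WT lungs. In both genes all KO values were above all WT values, with differences of 0.22 (95% interval 0.04 to 0.41, limma adjusted p = 0.0919) and 0.19 (0.02 to 0.37, adjusted p = 0.113). Both passed after a further quantile normalisation (limma adjusted p = 0.0233 and 0.0358) or cyclic loess (0.0318 and 0.0438), but not as deposited. Their other probe sets did not all share this. The second of Col4a3, 1450224_at, differed the other way, by -0.28, and those of Col4a4 differed by 0.10 and 0.05. With the probe sets of a gene averaged, the Col4a3 difference was -0.03. With the Gapdh control as a covariate the Col4a3 difference was -0.00.

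Col4a5, which joins Col4a3 and Col4a4 in their network, had log2 levels of 11.33, 11.19 and 11.33 in KO lungs, against 11.21, 11.40, 11.38 and 11.45 in WT lungs. Its X-linked neighbour Col4a6, known from the smooth muscle basement membrane, had 6.37, 6.37 and 6.57 in KO lungs, against 6.37, 6.39, 6.27 and 6.37 in WT lungs. Both overlapped between the groups, with differences of -0.08 and 0.09. The mean of Col4a3 and Col4a4 minus the mean of Col4a1 and Col4a2, a quantity formed after the values were seen, was -0.93, -0.89 and -0.63 on KO arrays, against -1.24, -1.29, -1.18 and -1.34 on WT arrays. The group means were -0.81 ± 0.16 (SD, n = 3) and -1.26 ± 0.07 (SD, n = 4). The groups did not overlap, and as the quantity was chosen for its values it is given without a test. It used the brightest probe sets only, and the second of Col4a3 differed in the other direction.

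**Figure D3:**
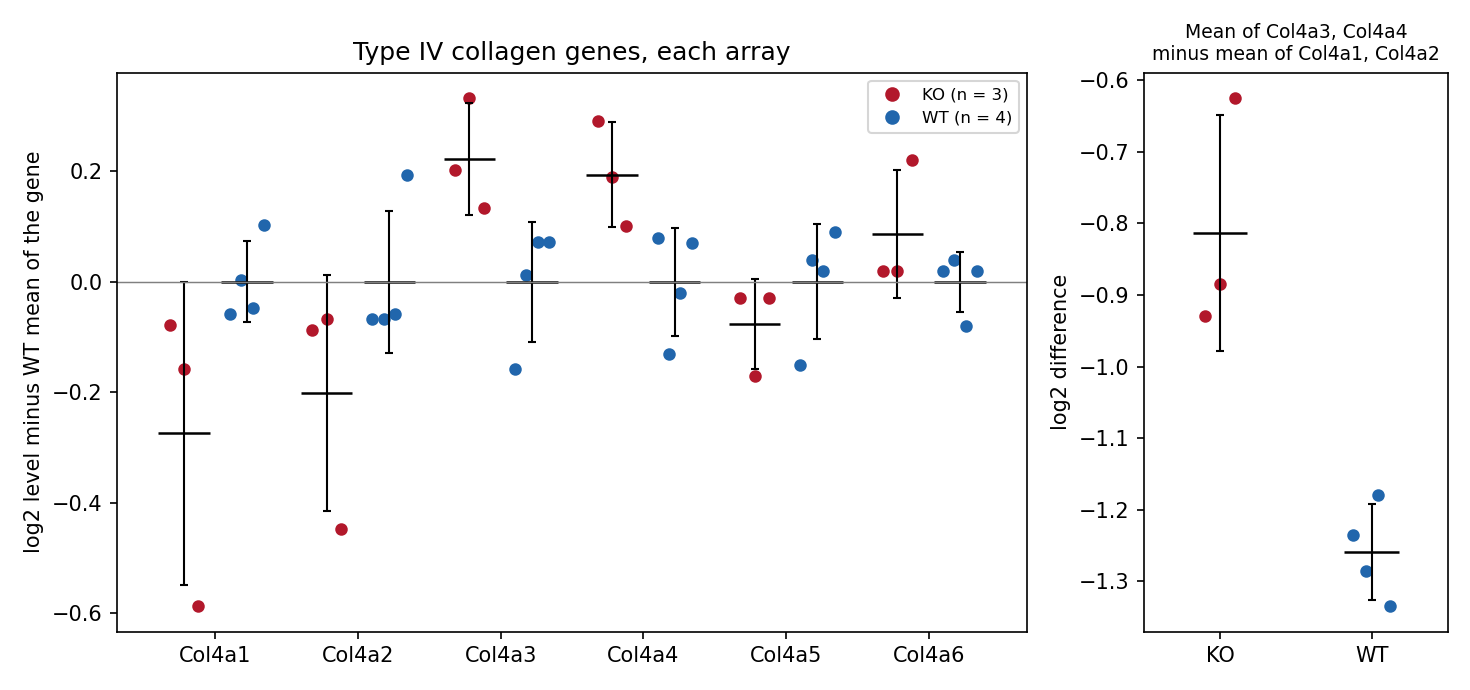
Left, log2 level of the 6 type IV genes at their brightest probe sets on each array minus that gene's WT mean, KO left of WT in each pair. Right, the mean of Col4a3 and Col4a4 minus the mean of Col4a1 and Col4a2 on each array, which was -0.93 to -0.63 on KO arrays and -1.34 to -1.18 on WT arrays. Horizontal lines are group means and vertical bars the SD.

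The starts of Col4a1 and Col4a2 lie so close that their promoter windows overlap, and the 22 bases from one annotated start to the other, where the first transcribed bases of both genes overlap, are shown as sequence both share. They are chr8:11312805-11312826 of GRCm38.p6, plus strand, with a GC content of 72.7% and 1 GGGCGG in capitals.
Col4a1 and Col4a2: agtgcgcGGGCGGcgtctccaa

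Some partner chains varied together between mice and others did not. Pearson's r of deviations from the group means over the 7 arrays was 0.961 for Col6a1 with Col6a2, 0.960 for Col1a1 with Col1a2 and 0.922 for Col4a1 with Col4a2. It was 0.293 for Col6a1 with Col6a3, 0.202 for Col4a5 with Col4a6, -0.088 for Col4a3 with Col4a4 and -0.561 for Col5a1 with Col5a2. Col3a1, the type III chain, correlated with Col1a2 at 0.865 and with Col1a1 at 0.858. Its highest value was 0.925, with Col15a1, a basement membrane zone collagen. Over all 465 pairs of tested collagen genes the median was 0.077. These values describe 7 arrays that share labelling and scaling, and carry no test. KO replicate 3 was the lowest KO array for 19 of the 31 tested collagen genes, beside 35.1% of all tested genes.

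Of the neighbouring pairs, Col4a3 with Col4a4 differed by 0.22 and 0.19 and Col4a1 with Col4a2 by -0.27 and -0.20. Col6a1 with Col6a2 differed by -0.02 and -0.00, and Col3a1 with Col5a2 by 0.05 and -0.09. The type VI chains, which form beaded microfibrils around cells, stayed close to 0 or did not pass. Col6a2 had log2 levels of 11.33, 11.41 and 11.27 in KO lungs, against 11.17, 11.49, 11.34 and 11.36 in WT lungs, with complete overlap. Col6a3 had 10.83, 10.77 and 10.48 in KO lungs, against 10.82, 10.91, 10.93 and 10.83 in WT lungs, a difference of -0.18 (limma adjusted p = 0.188), of which -0.07 remained without KO replicate 3.

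The 25 genes outside the fibrillar and type IV classes had a median log2 change of 0.06 and ran from -0.33 to 0.70. Of the 18 tested, 1 passed, Col20a1. Groups did not overlap for 5 of the 31 tested collagen genes with KO above (Col4a3, Col4a4, Col5a1, Col8a2 and Col20a1) and for 2 with KO below (Col4a1 and Col23a1), beside backgrounds of 12.1% and 17.5%, or 29.6% in either direction. Members named from these classes beyond the brightest of each were picked after their values were seen.

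The short-chain collagens of type VIII, which form hexagonal lattices around vessels, differed in opposite directions. Col8a1 had log2 levels of 8.34, 8.44 and 8.15 in KO lungs, against 8.58, 8.79, 8.42 and 8.50 in WT lungs, a difference of -0.26 (limma adjusted p = 0.115). Its partner Col8a2 had 7.50, 7.75 and 7.71 in KO lungs, against 7.42, 7.47, 7.18 and 7.13 in WT lungs. The groups overlapped for Col8a1 and were apart for Col8a2, whose difference of 0.35 (95% interval 0.11 to 0.59) fell just outside the threshold (limma adjusted p = 0.0535). Col8a2 passed with a further quantile normalisation (limma adjusted p = 0.0364), cyclic loess (0.0472), the stricter level filter (0.048), without KO replicate 1 (0.0492) and without WT replicate 2 (0.0462), and with the probe set of largest variance (0.0421). It did not pass with arrays centred on their median (0.0637), with array weights (0.0949) or without any other 1 array (up to 0.140). Col10a1, the type X chain of growing cartilage, lay under the filter.

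Of the transmembrane collagens, Col13a1, known from cell adhesion sites, had log2 levels of 8.52, 8.59 and 8.03 in KO lungs, against 8.60, 8.59, 8.90 and 8.73 in WT lungs. KO replicate 3 was the lowest array and the groups met at 8.59. The difference was -0.33 (limma adjusted p = 0.140) and -0.15 without KO replicate 3. Col23a1 had 8.00, 8.23 and 8.25 in KO lungs, against 8.53, 8.28, 8.28 and 8.48 in WT lungs, a difference of -0.23 (limma adjusted p = 0.121). The groups were apart at that probe set, and its other probe sets differed by 0.01 and -0.56. Col25a1, a transmembrane collagen known from brain, differed by 0.20 (limma adjusted p = 0.131).

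Among the FACIT genes, Col12a1, whose protein coats fibrils of type I collagen, had log2 levels of 8.61, 8.78 and 8.59 in KO lungs, against 8.18, 8.23, 8.71 and 8.44 in WT lungs. Only WT replicate 3 reached into the KO range, and the difference of 0.27 did not pass (limma adjusted p = 0.167). Col14a1, another fibril-coating member, differed by -0.22 and Col16a1 by -0.09. Col19a1 was separated between the groups but lay under the level filter, at 4.64, 4.50 and 4.65 in KO lungs against 4.38, 4.33, 4.45 and 4.42 in WT lungs (limma adjusted p = 0.0694 in the fit on all genes, where 11.0% passed, and 0.04 there without KO replicate 2). The anchoring fibril gene Col7a1 differed by -0.01. The basement membrane zone genes Col18a1, the source of endostatin, and Col15a1 differed by 0.04 and 0.09. Col26a1, which fits none of these classes, lay under the filter at a difference of -0.00. Scaling turned the sign of some of these small values. Among the named genes these were Col1a1, Col4a5, Col6a1, Col6a2, Col7a1, Col10a1, Col11a1, Col11a2, Col24a1 and Col27a1, all within 0.08 of 0 as deposited.

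Several collagen genes gave different answers at different probe sets. Of the 42 genes, 15 had 1 probe set and 27 had more, and in 12 of those 27 all probe sets shared a sign. At the second probe set of Col1a1, 1455494_at, log2 levels were 9.44, 8.89 and 9.02 in KO lungs, against 8.65, 8.91, 8.81 and 8.66 in WT lungs, a difference of 0.36. At the second probe set of Col3a1, 1427884_at, they were 9.47, 9.15 and 8.91 in KO lungs, against 8.67, 8.88, 8.76 and 8.81 in WT lungs, a difference of 0.40 (limma adjusted p = 0.0748 in the fit over all probe sets). The Col3a1 groups were apart there, and those of Col1a1 overlapped in KO replicate 2. The lesser probe sets of Col1a2 differed by 0.08 and 0.30, and that of Col5a2 by 0.20.

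Among genes with a second probe set above the filter level, the second differed in sign from the brightest in 8 of 17 collagen genes (47.1%), beside 43.0% of 5596 genes on the array. The second had the higher KO minus WT difference in 8 of 17 collagen genes (47.1%), beside 45.1% of all. Among the 6 fibrillar genes it was higher in 4, Col1a1, Col1a2, Col3a1 and Col5a2, with a median gap of 0.23 beside -0.04 over all genes. Within genes, the gap between second and brightest probe set differed between KO and WT by 0.35 for Col3a1 and by 0.36 for Col1a1, with exact two-sided permutation p-values of 0.0571 and 0.171. For Col4a3 the gap differed by -0.51 (exact p = 0.0571) and for the third probe set of Col23a1 by -0.33 (exact p = 0.286). These gaps, like that of Col5a1, were picked after the values were seen. Adjusted over the 5 comparisons, the permutation p was 0.0952 for Col3a1 and Col4a3, 0.214 for Col1a1 and 0.286 for Col23a1. The other genes with several probe sets were left out of that adjustment, so it does not correct for the picking, and no conclusion is drawn from these p-values. The second Col23a1 probe set, which differed by 0.01, was not compared in this way. A design of 3 against 4 cannot reach 0.05 in this test. Where each probe set lies on its transcript is not given in the files used here, so whether the 3′ labelling difference falls on these gaps was not tested.

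**Figure D4:**
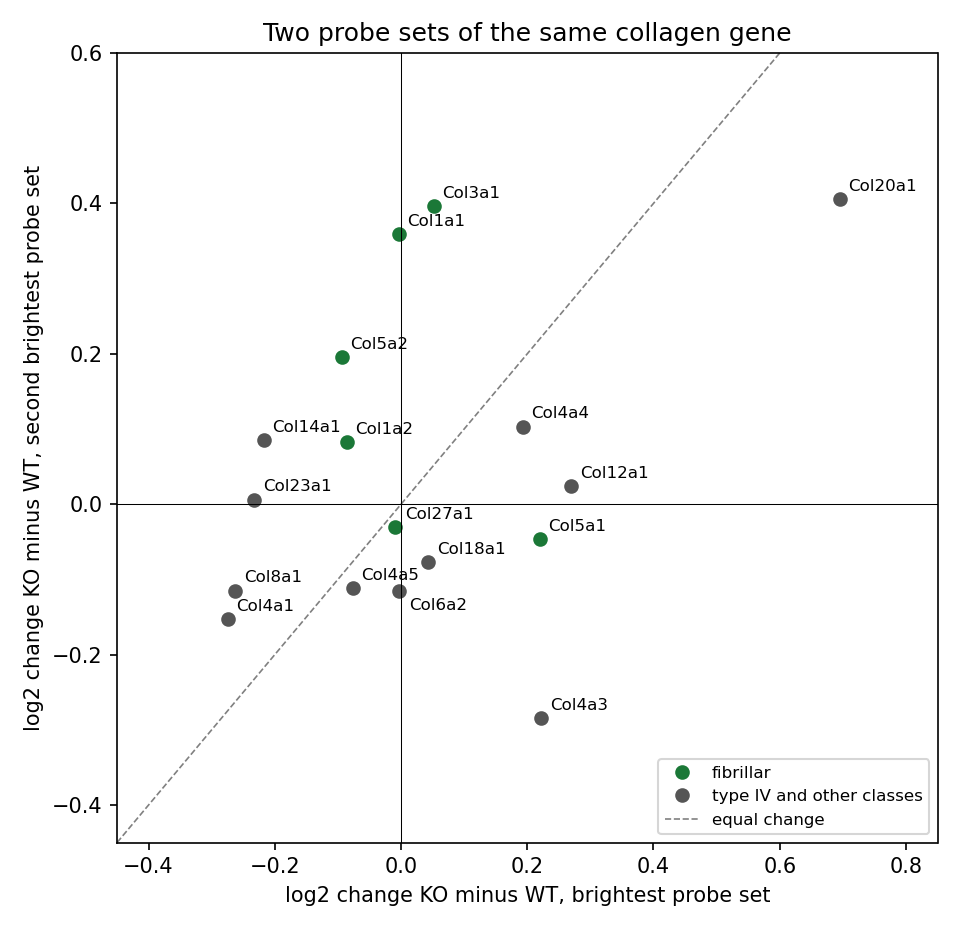
For the 17 collagen genes with a second probe set above the filter level, the log2 difference (KO minus WT) at the brightest probe set (horizontal axis) and at the second (vertical axis), with a dashed line of equal change. Points off the diagonal are genes whose probe sets disagree. Col3a1 lies at 0.05 and 0.40, and Col4a3 at 0.22 and -0.28.

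Enzymes that fold, modify and cross-link collagen chains were examined beside the chains themselves. In a list of 35 synthesis and cross-linking genes, 31 were on the array, 27 were tested, 10 fell in KO lungs, 1 rose and 16 did not pass. That is 40.7% passed, beside the 15.6% of all tested genes, and a median log2 change of -0.15, beside -0.00 over all tested genes. This list, like the lists that follow, was chosen with earlier results of these data known, and no test of it was made. All 11 that passed had groups that did not overlap, 8 passed without any 1 array, and none passed with either control covariate. The counts on overlap and left-out arrays were taken among genes already called. No share over all called genes is given beside them, so they do not set this list apart.

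Of the prolyl hydroxylase genes, whose enzymes modify proline so that the helix is stable, some fell and others did not pass. P4ha1, a catalytic subunit of the prolyl 4-hydroxylase, had log2 levels of 8.36, 8.39 and 8.12 in KO lungs, against 9.01, 8.94, 9.23 and 9.10 in WT lungs. Its difference was -0.78 (limma adjusted p = 0.00581), 1.72-fold lower in KO lungs, though its second probe set differed by only -0.10. P4ha2, the other main catalytic subunit, fell by 0.46, P4hb, the shared subunit and a disulfide isomerase, by 0.71, and P3h3, of the prolyl 3-hydroxylase family, by 0.59 on the log2 scale. With the beta-actin control as a covariate the P4hb difference was -0.06. P3h1, P3h2 and P3h4 did not pass, at -0.02, -0.07 and -0.05, and P4ha3 lay under the level filter.

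The lysyl hydroxylases, which prepare lysines for cross-links and sugars, fell as a trio. Plod3 had log2 levels of 8.23, 8.19 and 8.17 in KO lungs, against 8.48, 8.55, 8.50 and 8.54 in WT lungs, a difference of -0.32 (limma adjusted p = 0.00982) with tight groups well apart. Plod1 and Plod2 fell by 0.55 and 0.40 on the log2 scale, and the second probe set of Plod1 differed by 0.03. Sec23a, a coat protein of the vesicles that carry procollagen out of the endoplasmic reticulum, fell by 0.39. Colgalt1, a collagen galactosyltransferase, fell by 0.48 (limma adjusted p = 0.0418) and Pcolce2, an enhancer of procollagen trimming, by 0.57 (adjusted p = 0.0349), both with calls that were lost without any single WT array (adjusted p 0.0616 to 0.101). The Colgalt1 call was also lost without KO replicate 3 (0.0517), and with the beta-actin covariate its difference was -0.00. The collagen chaperone Serpinh1 differed by -0.25 (limma adjusted p = 0.168) at its brightest probe set and by -1.01 at the other.

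Among cross-linking enzymes, Loxl4, a lysyl oxidase relative, rose by 0.25 (limma adjusted p = 0.0401), a call that held in 1 of the 7 leave-outs, without KO replicate 3, and reached 0.100 without WT replicate 4. Loxl1, better known from elastic fibres, had 8.92, 8.00 and 7.96 in KO lungs, against 8.97, 9.24, 9.11 and 8.83 in WT lungs. KO replicate 1 lay within the WT range, and the difference of -0.74 did not pass (limma adjusted p = 0.0549). Loxl1 passed in 1 of the 7 leave-outs, without KO replicate 1 (limma adjusted p = 0.00952), and its other probe set differed by only -0.02. Lox differed by -0.32 without passing, and Tgm2, a transglutaminase and the brightest gene of the list, by -0.08.

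**Figure D5:**
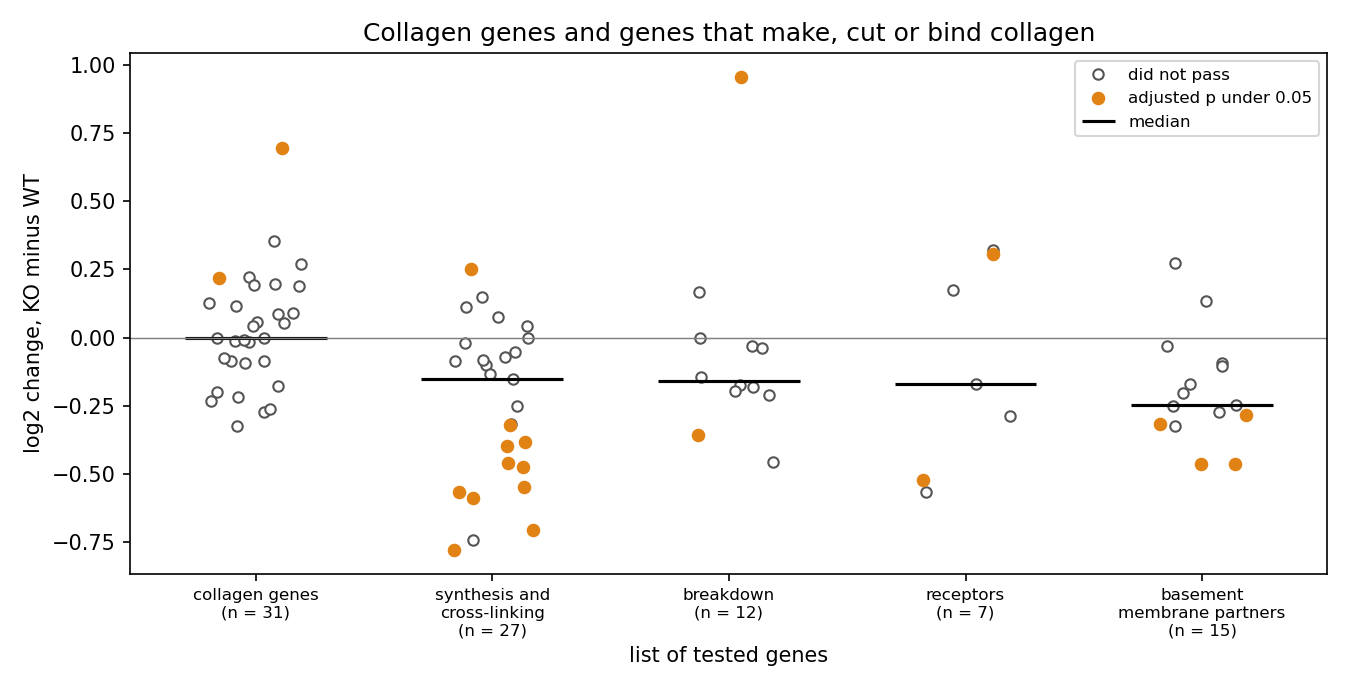
Each point is the log2 difference (KO minus WT) of 1 tested gene, for the 31 collagen genes and for 27 synthesis, 12 breakdown, 7 receptor and 15 basement membrane partner genes. Filled points passed an adjusted p under 0.05 and lines are medians. The synthesis genes hold 10 that fell and 1 that rose, and the collagen genes 0 and 2.

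Of 12 tested collagen breakdown genes, 1 rose, 1 fell and 10 did not pass (16.7% passed, beside 15.6% of all tested genes, median -0.16). Timp2, an inhibitor of matrix metalloproteinases, had log2 levels of 12.06, 11.93 and 11.84 in KO lungs, against 12.33, 12.31, 12.29 and 12.28 in WT lungs. It fell by 0.36 (limma adjusted p = 0.0123), with groups apart. Timp4, of the same family, rose by 0.96 with overlapping groups, at an adjusted p that rounds to the threshold of 0.05, and its other probe set differed by 0.07. Its call held only without WT replicate 2, and the adjusted p lay between 0.0568 and 0.148 without any other array. The cathepsin gene Ctsb differed by -0.21 without passing, with its other probe sets between -1.42 and 0.13.

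Of 7 tested collagen receptors, 1 rose and 1 fell (28.6% passed, beside 15.6% of all tested genes, median -0.17), the pair of discoidin domain receptors that bind fibrillar collagen. Ddr2, a discoidin domain receptor of mesenchymal cells, had log2 levels of 9.24, 9.42 and 9.03 in KO lungs, against 9.64, 9.77, 9.77 and 9.83 in WT lungs, a difference of -0.52 (limma adjusted p = 0.0122). Ddr1, the epithelial receptor of the same family, had 11.51, 11.44 and 11.67 in KO lungs, against 11.22, 11.27, 11.26 and 11.19 in WT lungs. Its groups were apart as well, at a difference of 0.31 (limma adjusted p = 0.0244), a call lost without KO replicate 3 (0.0559), or without WT replicates 1 (0.0614), 3 (0.0534) or 4 (0.0674). The other 5 receptors did not pass, Itgb1 among them at 0.32, with its other probe sets between -0.61 and 0.02.

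Of 15 tested genes for basement membrane proteins that meet type IV collagen, 4 fell and 0 rose (26.7% passed, beside 15.6% of all tested genes, of which 10.0% fell; median -0.25, beside -0.00). Lamb2, a laminin beta chain, had log2 levels of 6.88, 6.93 and 6.99 in KO lungs, against 7.23, 7.30, 7.49 and 7.57 in WT lungs, a difference of -0.46 (limma adjusted p = 0.0149) that passed without any 1 array. The others were Lamb3 at -0.47, Lamc1 at -0.28 and Sparc, a collagen-binding matricellular protein, at -0.32 (limma adjusted p 0.0323 to 0.0377). These 3 calls were less stable: Lamb3 kept its call only without WT replicate 1 or 2, Lamc1 only without KO replicate 1 or WT replicate 1, and Sparc only without WT replicate 1, with adjusted p up to 0.103 otherwise. Nid1, which links laminin to type IV collagen, differed by -0.09.

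Some markers of cells that make collagen were lower in KO lungs and others did not pass. Of 12 fibroblast markers, 5 fell in KO lungs (Tcf21, Dcn, Mfap4, Dpt and Inmt), 0 rose and 7 did not pass. The background was 10.0% lower over all tested genes, which applies to the marker counts that follow too. At its other probe set Dcn differed by 0.24, and Tcf21 by -0.17. Mfap4, a microfibril protein, had log2 levels of 9.67, 10.04 and 9.52 in KO lungs, against 10.86, 10.92, 10.60 and 11.22 in WT lungs, a difference of -1.16 (limma adjusted p = 0.00741). The log2 of the summed fibroblast marker level was 14.77 to 14.95 on KO arrays and 15.08 to 15.21 on WT arrays. For 8 endothelial markers, 5 of which fell, it was 12.86 to 13.16 on KO arrays and 13.24 to 13.57 on WT arrays. Smooth muscle markers overlapped in sum, at 13.10 to 13.25 on KO and 13.05 to 13.31 on WT arrays, with 4 of 8 lower. Mesothelial markers overlapped too, at 11.46 to 11.70 on KO and 11.44 to 12.00 on WT arrays, with 3 of 7 lower. These sums of linear levels follow the brightest markers, Acta2 (mean log2 level 12.68) and Gpm6a (10.64), and neither of those passed. Upk3b, Lrrn4 and Msln, the 3 mesothelial markers that fell, were dimmer and differed by -1.91, -1.15 and -0.93. None of 6 alveolar type 1 markers passed. Of 9 cartilage markers, 8 lay under the level filter. Of the markers on the array, 2 of 4 for nerve, 1 of 3 for basal cells and 1 of 4 for skeletal muscle were tested, and none of these passed. The part of these markers in the collagen values was not tested.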

How the data were processed

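The authors' table gives a log2 level for each of 45101 probe sets on 7 arrays and was used as deposited. The submitters' processing notes name RMA, MAS5 and Affymetrix Expression Console, with no version or role, so these sources leave unstated which method made the values, and the log base was read from their range. Groups and replicate numbers came from the labels.

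Leaving out controls, 45037 probe sets remained, and in the platform annotation 34945 of them had 1 gene, 932 several and 9160 none. A RefSeq table of GRCm38.p6 was matched by gene identifier for 34741 probe sets, which took their names from it, and gave gene order. Promoter windows came from RefSeq for the same assembly. A gene with several probe sets was represented by the one with the highest mean.

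KO and WT were compared over all 7 arrays in limma 3.58.1 (R 4.3.3; lmFit, then eBayes) in a model of genotype alone, on 13285 genes at or above the 40th percentile. Benjamini-Hochberg adjustment ran over all of them, and an adjusted p under 0.05 was the threshold. The 4908 genes under the filter were read from the same fit on all 18193 genes, and probe sets from a fit on 45037. Single values were compared by an exact two-sided permutation test. The fit was also run on simulated data, where 43 of 64 genes with a planted log2 change of 0.5 were recovered, with 12 false among 187 calls. No smaller change was planted, so recovery of smaller changes was not tested. Arrays have no counting depth, and the precision is limited by their number.

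Named genes were those that passed, the fibrillar and type IV genes, Col6a1 to Col6a3, the brightest of each other class and, of the lists, those that passed and the brightest that did not; others were picked after their values were seen. The members, classes and lists were chosen with earlier results of these data known. Alternatives covered scaling, level filter, choice of probe set, variance model, array weights, replicate number as a block, control covariates, the 5 mice with the lowest mouse numbers, and each array left out. A pseudocount was not applied to values already on a log scale. Python 3.11.15 with matplotlib 3.10.9 drew the figures.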

Additional observations from a re-analysis of the deposited data

Results flagged for a closer look

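In 3 of the 42 collagen genes 1 WT array was flagged as apart from the other 3, in a check that flags about 1 in 20 groups by chance. The check weighs the gap against the range of the 4 WT arrays, so a very small gap can be flagged. KO arrays were not checked in this way. Col4a2, a chain of the common basement membrane network, was 11.98 on WT replicate 4, against 11.72 to 11.73 on the other WT arrays, which is also the array that stood apart in Xist. Without it the KO minus WT difference of Col4a2 was -0.14. Col4a6, the X-linked type IV gene, was 6.27 on WT replicate 3, against 6.37 to 6.39 on the others. Col26a1, under the level filter, was 3.86 on WT replicate 2, against 3.83 on the others.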

How the results depend on the processing

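Counts of collagen genes at a limma adjusted p under 0.05 were small under every setting tried. The 2 higher in KO became 5 with a further quantile normalisation, 5 with cyclic loess, 1 with arrays centred on their median, 1 when a gene's probe sets were averaged, 3 with the probe set of largest variance, 0 with the beta-actin covariate, 0 with the Gapdh covariate and 0 in the 5 mice with the lowest mouse numbers, and 1 to 2 without any 1 array. The extra genes were Col8a2, Col4a3 and Col4a4 with the scalings, and Col3a1 (0.40) and Col8a2 with the largest variance. The count lower in KO was 0 throughout. Over the whole array the 2069 genes that passed became 3319 with the largest variance, 0 with beta-actin, 5 with Gapdh, 0 in the 5 mice, and 891 to 1951 without 1 array, lowest without WT replicate 4; such counts limit what any covariate or subset could show. With the replicate number as a replicate block 1874 passed, 2 of them collagen genes, higher; same-numbered arrays did not deviate together (correlations 0.00331, -0.0424 and 0.0351), so the numbers were not read as pairs. The fibrillar median of 0.01 became 0.18 with the largest variance. The type IV median of 0.01 became -0.063 with averaged probe sets, -0.16 with the largest variance and 0.14 with beta-actin. Over 822 single-gene values, 88 changed sign, none of them called under either setting, 12 gained a call, Col19a1 without KO replicate 2 among them, and 14 lost one; a value counted as reversed only where called, a rule set after the values were seen. Dim probe sets such as those of Col20a1 limit its size, and it had no value under the 60th percentile filter or the largest variance, where its probe set fell below the filter. The causes of these changes were not tested.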
